A study of Mus musculus with 4 samples.

Results

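The genes described here are 47 genes that act in S phase, the stage of the cell cycle in which DNA is copied. The set was given as a list of gene symbols, and all 47 are among the 17992 genes of the malignant cell table and the 16349 genes of the non-malignant cell table. They were measured in single cells of mouse sarcomas, in a study that compared mice given digoxin with mice given vehicle. Digoxin is a cardiac glycoside, a drug class that blocks the sodium pump. The tumors carry the genotype KrasLSL-G12D/+;Trp53flox/flox, conditional alleles of an oncogene and a tumor suppressor gene, on the 129/SvJae background. They were grown as allografts and were cut out of the hind limb. Per the labels, vehicle mice received PBS and digoxin mice received 2 mg/kg digoxin, dissolved in DMSO and diluted in PBS, each by intraperitoneal injection every 24 hours until the fourth dose. Each group held 2 mice. The promoter of the Cre recombinase, the genotype of the host and the age of the mice are not given in the sources used here.

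DNA copying begins when the Mcm2 to Mcm7 helicase ring is loaded at origins with the help of Cdc6 and Cdt1. Cdc45 and the GINS complex switch the helicase on, primase and DNA polymerases build the new strands, and Pcna, the sliding clamp loaded by the Rfc complex, holds the polymerases on DNA. Ribonucleotide reductase, thymidylate synthase and thymidine kinase supply nucleotides, while E2F transcription factors and cyclin E switch many of these genes on as cells leave G1. In tumors these genes are used as marks of dividing cells.

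The levels below are CPM, the unique molecular identifiers (UMIs) of a gene scaled to 1000000 UMIs of its cell and averaged over the cells of a mouse. UMIs from 3′ ends count RNA molecules, so no division by gene length was made. The mouse was the replicate, and the differences are digoxin minus vehicle in log2(mean CPM + 1), a scale that understates differences of low genes. The malignant table held 3976 to 6269 cells per mouse, with a median depth of 46799 UMIs per cell in vehicle 2 and 55363 to 57658 in the other 3 mice. The non-malignant table held 3014 to 3344 cells per mouse with median depths of 15837 to 16671 UMIs. Of 31611 cells, 113 barcodes occurred in more than 1 library and 0 cells in both tables. Vehicle 2 stood apart in its non-malignant cells, where Xist, the RNA of the inactive X chromosome, was at 6.09 CPM against 722 to 817 in the other mice and the Y-linked gene Ddx3y was at 86.0 against 1.72 to 2.14. Values without this mouse are given below for the main counts. The labelled populations were checked on marker lists. Cells labelled Epithelial held 7.17 to 19.3 CPM in sum over 4 epithelial markers and 2279 to 2476 over 4 endothelial markers, so their label goes against these markers. Cells labelled Microglia held 56.9 to 99.8 CPM over 3 microglia markers, below the 234 to 397 in macrophages.

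The promoters of the set were searched for the letters that E2F factors are known to bind. RefSeq promoter windows (GRCm38.p6, 250 bases before to 50 after each start) were matched for 37 of the 47 genes; Ccne2, Exo1, Gins1, Gins2, Gmnn, Mcm4, Pole, Prim2, Rfc2 and Tipin were not matched. Both strands were searched for TTTCCCGC and TTTGGCGC, and for the 7-letter cores TTCCCGC and TTGGCGC that lie within them. Stretches of 150 bases are printed from genes whose levels are described below, each running from 170 to 21 bases before the annotated start on the gene's own strand. They show a helicase pair and a polymerase gene with different numbers of matches, a licensing gene with 1 match, and Rrm2, which varied most between mice and holds none. Capitals mark the E2F letters on either strand. The stretches are Mcm5 at chr8:75109339-75109488 (plus strand), Mcm6 at chr1:128359726-128359875 (minus strand), Cdc6 at chr11:98907981-98908130 (plus strand), Pola1 at chrX:93632176-93632325 (minus strand) and Rrm2 at chr12:24708084-24708233 (plus strand).
Mcm5: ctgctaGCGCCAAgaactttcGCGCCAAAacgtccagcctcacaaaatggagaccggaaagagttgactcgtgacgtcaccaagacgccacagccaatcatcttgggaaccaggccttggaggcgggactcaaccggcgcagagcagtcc
Mcm6: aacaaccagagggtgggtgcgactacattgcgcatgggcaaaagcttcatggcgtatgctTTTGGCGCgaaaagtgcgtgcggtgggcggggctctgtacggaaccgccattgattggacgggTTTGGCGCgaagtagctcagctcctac
Cdc6: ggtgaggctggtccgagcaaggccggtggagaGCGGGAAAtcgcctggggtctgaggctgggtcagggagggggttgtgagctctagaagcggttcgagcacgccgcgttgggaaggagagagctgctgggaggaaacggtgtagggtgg
Pola1: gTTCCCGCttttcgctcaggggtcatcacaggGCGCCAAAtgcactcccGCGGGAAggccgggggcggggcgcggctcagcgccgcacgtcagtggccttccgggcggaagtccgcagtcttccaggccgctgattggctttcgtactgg
Rrm2: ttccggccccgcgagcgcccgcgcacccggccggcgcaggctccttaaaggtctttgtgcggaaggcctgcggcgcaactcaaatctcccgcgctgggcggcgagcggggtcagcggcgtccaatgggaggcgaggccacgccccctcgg

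The Mcm5 stretch holds 1 of the 8-letter motifs and a second core beside it, the Mcm6 stretch holds 2 of the 8-letter motifs, and the Pola1 stretch holds 1 with 3 cores in all, counting the one inside the longer motif. Cdc6 holds 1, and the Rrm2 stretch holds 0 but has a CCAAT box, the pentamer bound by NF-Y. Over the set, 13 of the 37 matched genes (35.1%) held an 8-letter motif in the whole window, against 1.80% of 27025 genes and 3.02% of the 12397 matched genes that were tested in malignant cells. The 7-letter cores were found in 22 of 37 (59.5%), against 7.79% and 12.8%. CCAAT was also found in 22 of 37 (59.5%), but its share over all genes was 41.1%. A match describes letters in a window and is not a measured binding site.

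No gene of the set passed the test between digoxin and vehicle in malignant cells, yet all 47 lay on the same side. All 47 differences were above 0, from 0.03 for Slbp to 0.31 for Rrm2, with a median of 0.15, while the median over all 17138 genes tested was -0.01 and 47.2% of them lay above 0. The test was limma with Benjamini-Hochberg adjustment over all genes tested, with 0.05 as the threshold. It called 0 of 47 genes of the set and 0% of all genes; at an unadjusted p under 0.05 it held 0 of 47, against 3.41% of all genes. Vehicle 2 was the lowest of the 4 mice for 47 of 47 genes, against 30.8% of all genes tested, and digoxin 2 was the highest for 42, with vehicle 1 highest for the other 5. The summed level of the set was 1550 CPM in vehicle 1, 1218 in vehicle 2, 1417 in digoxin 1 and 1669 in digoxin 2. Digoxin 1 therefore lay between the vehicle mice, and the groups overlapped in the sum. Without vehicle 2, 20 genes lay above 0 and 27 below, with a median of -0.01; without vehicle 1, the median was 0.34, 25 genes reached an unadjusted p under 0.05, against 9.13% of all genes, and 0 were called. Without digoxin 2, 37 genes lay above 0 with a median of 0.05, and without digoxin 1, 47 with a median of 0.26. Vehicle 2 also had the lowest median depth, given above, and whether depth or the host has a part in its levels was not tested.

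**Figure D1:**
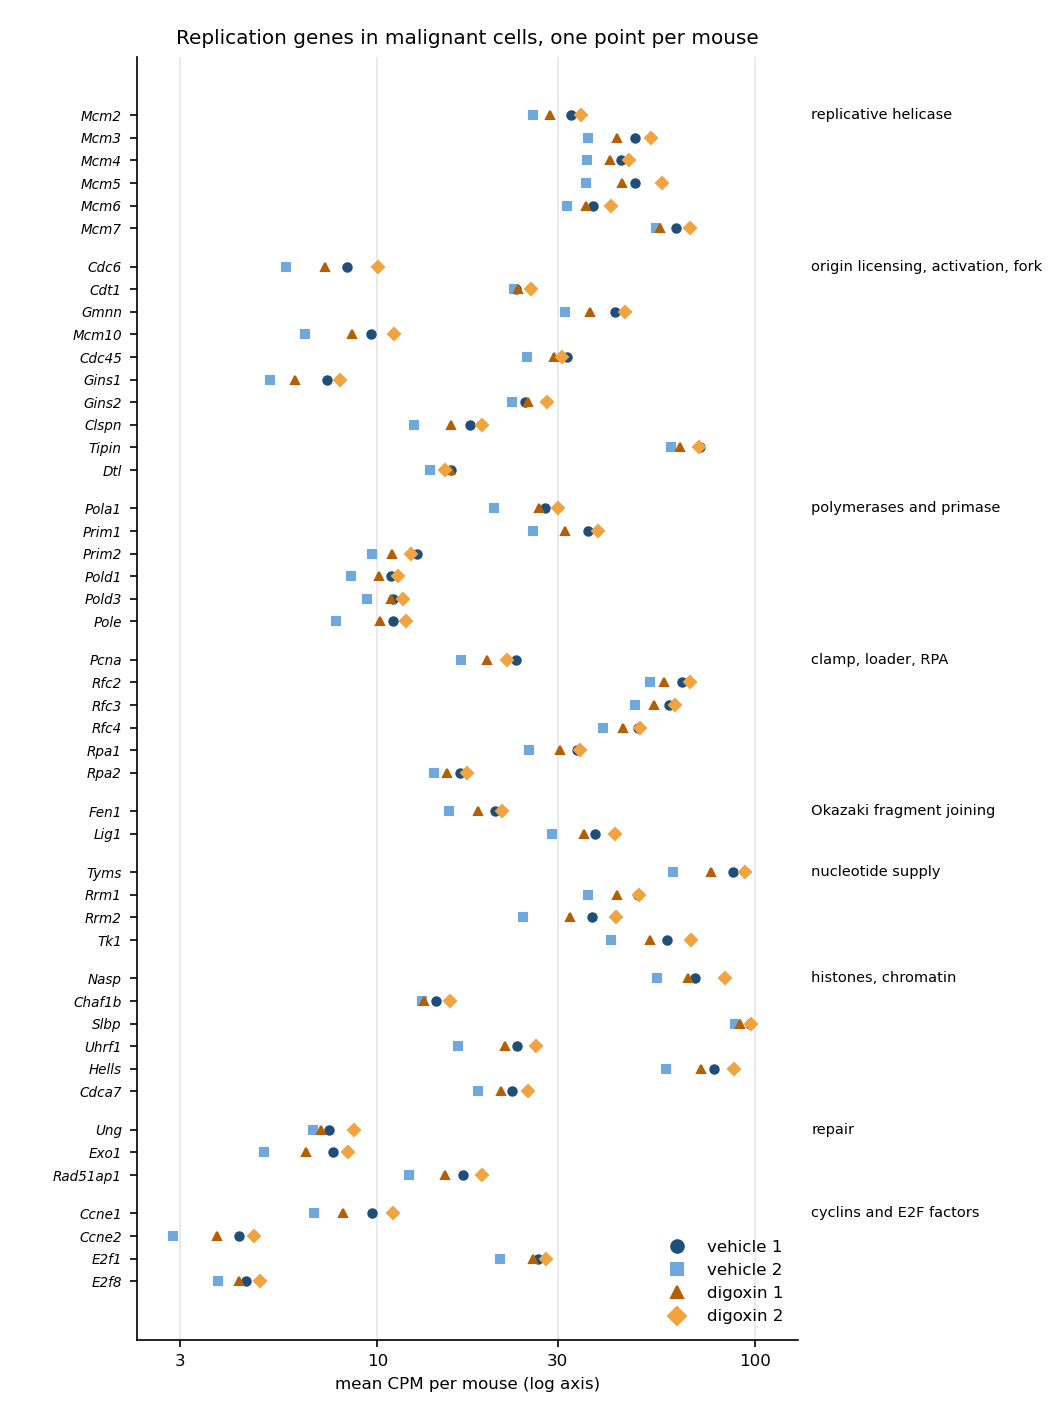
Mean CPM of the 47 replication genes in malignant cells on a log axis, 1 point per mouse, grouped by role. Vehicle 2 (light blue squares) is the leftmost point in all 47 rows, and digoxin 2 (orange diamonds) is the rightmost in 42.

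The helicase subunits, which unwind DNA at the fork, showed this order plainly. Mcm7 had the highest level of the 6, at 61.7 and 54.8 CPM in vehicle mice 1 and 2 and 56.1 and 67.3 in digoxin mice 1 and 2, a difference of 0.08 (SE 0.11). Mcm5 was at 48.2, 35.6, 44.6 and 56.6 CPM in the same order, a difference of 0.27 (SE 0.18). For both genes the digoxin mice lay on either side of vehicle 1. The 6 subunits had differences of 0.08 to 0.27, and in none of them were both digoxin mice above both vehicle mice.

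Among licensing and fork factors, Tipin, which stabilises stalled forks, was at 71.3 and 59.9 CPM with vehicle and 63.1 and 71.1 with digoxin, a difference of 0.03 (SE 0.11). Gmnn, geminin, which binds Cdt1 and prevents a second round of licensing, was at 42.7, 31.3, 36.6 and 45.3 CPM, a difference of 0.15 (SE 0.17). Gins2, a GINS subunit, was at 24.6, 22.7, 25.0 and 28.1 CPM. Its difference of 0.16 (SE 0.10) had an unadjusted p of 0.150 and a limma adjusted p of 1.00. Gins2 and Cdt1 were the 2 genes of the set with both digoxin mice above both vehicle mice, against 12.8% of all genes tested, and 0 genes had both below, against 16.5%.

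Polymerase and clamp genes had the same lowest mouse. Pola1, the catalytic subunit of the polymerase that works with primase, was at 27.7, 20.3, 26.8 and 30.1 CPM in vehicle 1, vehicle 2, digoxin 1 and digoxin 2, a difference of 0.25 (SE 0.16, unadjusted p = 0.168, limma adjusted p = 1.00). Prim1, the small primase subunit, was at 36.2, 25.9, 31.5 and 38.3 CPM, a difference of 0.18 (SE 0.18). The clamp loader subunits Rfc2 and Rfc3 had higher levels, Rfc2 at 64.0, 52.8, 57.6 and 67.1 CPM and Rfc3 at 59.0, 48.1, 53.9 and 61.5. Their differences were 0.09 (SE 0.12) and 0.11 (SE 0.12), and the 6 clamp, loader and single-strand binding genes ranged from 0.07 to 0.14. Lig1, which seals Okazaki fragments, was at 37.6, 28.9, 35.3 and 42.5 CPM, and Fen1, which trims their flaps, at 20.4, 15.5, 18.4 and 21.4. In each of these genes vehicle 2 was the lowest mouse and the groups overlapped.

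Nucleotide supply genes included Rrm2, the gene of the set with the widest spread between mice. Tyms, thymidylate synthase, was at 87.3, 60.8, 76.6 and 93.9 CPM, a difference of 0.22 (SE 0.19). Tk1, thymidine kinase, was at 58.3, 41.6, 52.7 and 67.9 CPM, a difference of 0.27 (SE 0.19). Rrm2, the small subunit of ribonucleotide reductase, was at 37.0, 24.2, 32.4 and 43.0 CPM. Its highest mouse was 1.77 times its lowest, and its difference of 0.31 (SE 0.23) was the largest. In Rrm1, the large subunit, the ratio of highest to lowest mouse was 1.36. The ratio of highest to lowest mouse had a median of 1.36 over the 47 genes, against 1.16 over the 9928 tested genes with at least the level of the lowest gene of the set.

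Histone and chromatin genes included the most abundant gene of the set by UMIs. Slbp, which binds the stem-loop of histone messages, was at 97.1, 88.3, 91.5 and 97.6 CPM, a difference of 0.03 (SE 0.08). Hells, a chromatin remodeller needed for DNA methylation, was at 77.7, 58.0, 71.8 and 87.9 CPM, a difference of 0.24 (SE 0.17). Nasp, a histone chaperone, had the smallest p of the set, with 69.4, 54.9, 66.3 and 83.1 CPM, a difference of 0.26 (SE 0.15), an unadjusted p of 0.144 and a limma adjusted p of 1.00. Digoxin 1 lay below vehicle 1 for all 3 genes.

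The repair genes and regulators named here were lower in level than most genes named above, though the mean of E2f1 was above those of Fen1 and Gins2. Rad51ap1, a homologous recombination factor, was at 16.9, 12.1, 15.1 and 18.96 CPM, a difference of 0.23 (SE 0.18), and Ung, which removes uracil from DNA, was at 7.46, 6.73, 7.10 and 8.67, a difference of 0.13 (SE 0.13). E2f1, an activating E2F factor, was at 26.6, 21.1, 25.8 and 28.0 CPM, a difference of 0.18 (SE 0.13). Ccne1, cyclin E1, was at 9.66, 6.78, 8.10 and 11.02 CPM, a difference of 0.20 (SE 0.21). Ccne2 had the lowest level of the set, from 2.87 to 4.71 CPM.

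Genes of neighbouring pathways, none of them in the set, were placed beside it in malignant cells, and limma called 0 of them in each list. Of 42 other replication genes, 37 lay above 0 with a median of 0.09; of 25 G1/S control genes, 15 lay above 0 with a median of 0.06; of 14 replication checkpoint genes, 12 with a median of 0.10; and of 18 G2 and mitosis genes, 18 with a median of 0.21. The mitosis genes had vehicle 2 lowest in 18 of 18. Without vehicle 2, 17 of the 42 other replication genes lay above 0 (median -0.02), 14 of the G1/S control genes (0.01), 6 of the checkpoint genes (-0.01) and 0 of the mitosis genes (-0.12). Top2a, the topoisomerase that untangles sister chromatids, was at 193.7, 129.1, 167.5 and 207.8 CPM, and Mki67, the Ki-67 proliferation antigen, at 64.8, 42.8, 55.6 and 66.5. Pclaf, a Pcna-binding protein, was at 105.9, 66.3, 86.1 and 104.8 CPM. Orc1, an origin recognition subunit, was at 3.76, 2.78, 3.002 and 3.59, and Ccna2, cyclin A2, at 61.3, 37.0, 48.2 and 64.2. In these 5 genes vehicle 2 was again lowest. Ccnd1, cyclin D1, was at 181.0, 158.6, 168.7 and 201.2 CPM, with vehicle 2 lowest too. Cdkn1a, the p21 inhibitor of cyclin-dependent kinases, had another order, with 32.0 and 39.6 CPM in vehicle mice and 44.4 and 42.8 in digoxin mice, a difference of 0.28 (SE 0.11, unadjusted p = 0.0524, limma adjusted p = 1.00).

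To see where in the cell cycle the genes were used, malignant cells of each mouse were thinned to 20000 UMIs and ranked by the summed UMIs of the 42 other replication genes. This kept 4336, 5811, 3949 and 3657 cells in vehicle 1, vehicle 2, digoxin 1 and digoxin 2. In the highest 20% of cells, each of the 47 genes had a higher mean than in the lowest 20%, in each of the 4 mice. The ratio of means ranged from 2.07 for Slbp to 58.8 for Tk1, with a median of 6.90. E2f1 (2.17) and Pold3 (2.99), a subunit of polymerase delta, were near the low end. Rrm2 (39.4), Exo1 (42.4), Cdc6 (46.8) and Rad51ap1 (49.1) were near the high end. Mcm5 went from 7.27 to 127.9 CPM, a ratio of 17.6, while Mcm4 went from 16.9 to 82.7, a ratio of 4.88, so subunits of the same ring differed. Cells are not replicates, so these ratios are a description. The share of all genes that were higher in the same tier was not computed. Pold3, Exo1, Cdc6, Mcm4, Ccne2 and Rfc4 are named here for their place in this order, after their values were seen.

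The same cells were ranked by the 18 G2 and mitosis genes. In 45 of the 47 genes the highest 20% for mitosis had a lower mean than the highest 20% for replication in each mouse, with a median ratio of 0.82. The share over all genes was not computed. Ung had the lowest ratio (0.35), followed by Cdc6 (0.52), Ccne2 (0.56) and Ccne1 (0.61), genes of origin licensing, cyclin E and uracil repair. At the other end, Rfc4 (0.96), Tk1 (0.95) and Tyms (0.95) were nearly level between the tiers. The tiers share many cells: 532 of 867 in vehicle 1, 896 of 1162 in vehicle 2, 538 of 789 in digoxin 1 and 404 of 731 in digoxin 2. Shared cells count on both sides of these ratios and draw them toward 1. Why the sharing differed between mice was not tested. With the highest and lowest 10% of cells, the median replication ratio was 8.45, and the counts were 47 and 47. The median ratio of the mitosis tier to the replication tier was then 0.64. Those tiers shared from 83 of 365 cells in digoxin 2 to 275 of 581 in vehicle 2.

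**Figure D2:**
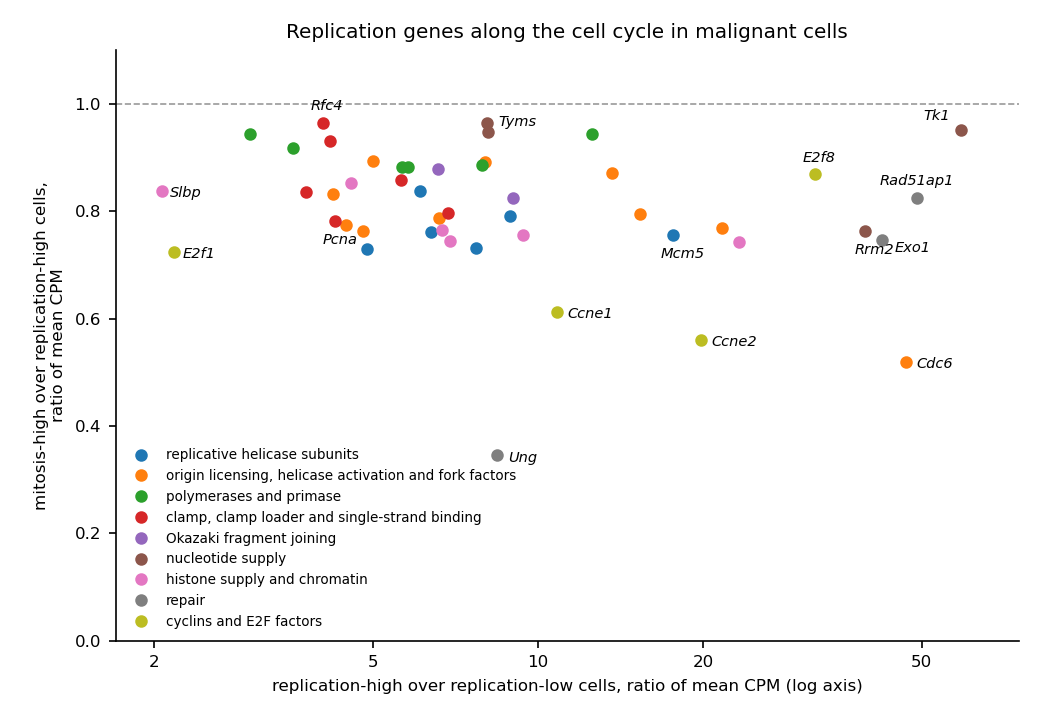
Each point is a replication gene in malignant cells: the ratio of mean CPM in the 20% of cells highest for other replication genes to that in the lowest 20% (log axis), against the ratio of the 20% highest for mitosis genes to the 20% highest for replication genes. All genes lie above 2 on the first axis and below 1 on the second; Tk1 (58.8) is farthest right and Ung (0.35) lowest.

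The genes with wider cell cycle ratios also had wider ratios between some pairs of mice. Over the 47 genes, Spearman's rho of the cell cycle ratio with the ratio of digoxin 2 to vehicle 2 was 0.76, and with the ratio of the vehicle mice, 1 over 2, it was 0.64. These ratios share vehicle 2, the lowest mouse for all 47 genes. With the ratio of the digoxin mice, 2 over 1, it was 0.76. The points are genes of the same libraries and are not independent, so these values are a description.

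The share of malignant cells with UMIs from at least 5 genes of the set followed the levels. After thinning each cell to 5000 UMIs, the share was 51.1% in vehicle 1, 38.4% in vehicle 2, 44.6% in digoxin 1 and 53.7% in digoxin 2, and the groups overlapped. The digoxin minus vehicle difference was 4.42 percentage points, and -1.93 without vehicle 2. Before thinning it was 97.5% to 99.1%, where depth leaves almost no cell below the threshold. Of cells labelled Neutrophil, a type that does not divide once mature, 11.8% to 22.7% passed in 3 mice and 0 of 5 cells in vehicle 2, too few to set a limit, at median depths of 7202 to 13690 UMIs. Those that passed, 2 in vehicle 1, 4 in digoxin 1 and 5 in digoxin 2, held means of 8, 16.5 and 20.6 UMIs of the set, so the share in this type was not read as a background level. Cells near the threshold were common, with 276 to 458 malignant cells per mouse at exactly 5 genes. Among malignant cells that passed, the mean number of UMIs from the set was 12.6, 11.8, 12.7 and 13.1; the threshold bounds these means from below, so their spread was not set against that of the share.

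**Figure D3:**
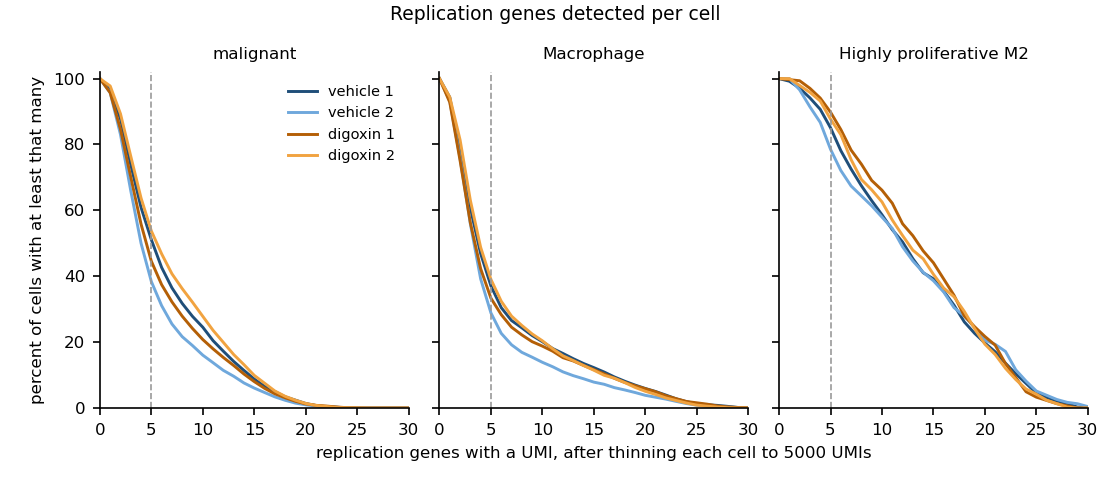
Percent of cells (vertical axis) with UMIs from at least a given number of replication genes (horizontal axis) after thinning to 5000 UMIs, 1 line per mouse; the dashed line marks 5 genes. At 5 genes malignant cells run from 38.4% (vehicle 2) to 53.7% (digoxin 2), and highly proliferative M2 macrophages from 78.5% to 89.8%.

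Macrophages, the largest non-malignant type with 10363 cells, carried the set at a summed CPM near that of malignant cells. Their median depth was 16070 to 17049 UMIs per cell, against 46799 to 57658 in malignant cells. Similar CPM therefore does not mean similar UMIs of the set per cell. After thinning to 5000 UMIs, at least 5 genes of the set were detected in 28.8% to 39.0% of macrophages. In malignant cells the share was 38.4% to 53.7%. The summed level in macrophages was 1505 and 1194 CPM with vehicle and 1418 and 1503 with digoxin. Of 47 genes, 43 lay above 0 with a median of 0.13 (all genes -0.01), limma called 0 of 47 (0% of all genes), and 0 reached an unadjusted p under 0.05 (4.04% of all genes). Both digoxin mice were above both vehicle mice for 10 of 47, against 13.6% of all genes. The smallest p belonged to Chaf1b, a subunit of the chromatin assembly factor, at 11.4, 10.9, 13.2 and 13.7 CPM, a difference of 0.25 (SE 0.14, unadjusted p = 0.108, limma adjusted p = 1.00). Clspn, claspin, which carries the checkpoint signal at forks, was at 17.1, 15.5, 18.6 and 20.6 CPM, and Pole, the leading-strand polymerase, at 7.98, 6.52, 8.61 and 9.43. In these genes the digoxin mice lay above both vehicle mice. Vehicle 2 was the lowest mouse for 42 of 47 genes, against 37.8% of all genes, and without it 16 genes lay above 0 and 31 below, with a median of -0.05. Without vehicle 1, the median was 0.29 (all genes 0.02) and 19 genes reached an unadjusted p under 0.05, against 13.9% of all genes. The makeup of the type moved with this mouse: highly proliferative M2 cells were 9.49% of macrophages in vehicle 2 and 11.1% to 15.5% in the others, and M2 cells were 61.5% against 39.2% to 43.5%. Its part in the result was not tested.

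In M2 macrophages, all 47 differences were above 0, from 0.09 to 0.53 with a median of 0.29, while the median of all genes was 0.02. Limma called 0 of 47 (0% of all genes). At an unadjusted p under 0.05 stood 3 of 47, against 2.28% of all genes, and both digoxin mice were above both vehicle mice for 19 of 47, against 15% of all genes. Pole was at 8.05 and 5.66 CPM with vehicle and 10.7 and 9.72 with digoxin, a difference of 0.53 (SE 0.22, unadjusted p = 0.0406, limma adjusted p = 1.00). Gins2 was at 25.2, 22.2, 30.4 and 32.1 CPM, a difference of 0.39 (SE 0.16), and Chaf1b at 13.3, 10.3, 18.2 and 15.1, a difference of 0.47 (SE 0.20). The groups did not overlap for these 3 genes, and without vehicle 2 the differences were 0.31 for Pole, 0.30 for Gins2 and 0.30 for Chaf1b. The helicase subunits had differences of 0.29 to 0.45 and the clamp, loader and single-strand binding genes 0.12 to 0.27. Vehicle 2 was the lowest mouse for 47 of 47 genes, against 41.0% of all genes, and its M2 cells had the highest sum of 7 macrophage markers, 34424 CPM against 22562 to 28359. Without vehicle 2, 27 genes lay above 0 and 20 below, with a median of 0.03; without vehicle 1, 36 of 47 reached an unadjusted p under 0.05, against 10% of all genes, and 0 were called. The part of the marker level in the result was not tested.

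M1 macrophages, with the lowest level of the 3 sub-clusters, had no common direction. Of 47 genes, 22 lay above 0 and 25 below, with a median of -0.016, while the median of all genes was -0.024. Limma called 0 of 47 (0% of all genes) and 1 of 47 reached an unadjusted p under 0.05, against 7.73% of all genes. That gene was Tipin, at 22.2 and 23.4 CPM with vehicle and 18.96 and 17.2 with digoxin, a difference of -0.32 (SE 0.13, unadjusted p = 0.0433, limma adjusted p = 0.620). Ung was at 4.43, 3.56, 3.15 and 2.303 CPM and Rfc4 at 13.5, 14.2, 10.8 and 11.9, both with the digoxin mice below. Both digoxin mice were below both vehicle mice for 9 of 47, against 24% of all genes, and above for 4 of 47, against 15.3%. The 6 helicase subunits lay below 0 with all 4 mice, from -0.23 to -0.02, but without vehicle 1 Mcm2 (0.04), Mcm5 (0.06), Mcm6 (0.09) and Mcm7 (0.11) lay above. Without vehicle 2, 13 of 47 genes lay above 0 with a median of -0.14, and without vehicle 1, 31 with a median of 0.06.

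The difference between the sub-clusters was tested itself, with the mouse as a block. Mcm3 had a difference of -0.22 in M1 and 0.29 in M2, and the interaction was 0.51 (SE 0.16, unadjusted p = 0.0110, limma adjusted p = 0.820). At an unadjusted p under 0.05 stood 13 of 47 genes, against 5.92% of all genes, all 13 higher in M2, and 0 were called. The 13 included 5 helicase subunits, Mcm2 to Mcm6, with the polymerase subunit Pold1, Lig1, Ung, Rfc3, Rfc4, Tipin, Chaf1b and Cdca7, and each interaction uses the same 4 mice. The result moved with the vehicle mice. Without vehicle 2, the Mcm3 interaction was 0.29 (SE 0.14), those of Mcm2, Mcm4, Mcm5 and Mcm6 were 0.29, 0.28, 0.23 and 0.27, and 2 of 47 genes reached an unadjusted p under 0.05, against 6.43% of all genes. Without vehicle 1, limma called 4 genes, Mcm3 at 0.73 (adjusted p = 0.0154), Mcm4 at 0.88 (adjusted p = 0.0234), Mcm5 at 0.87 (adjusted p = 0.0192) and Tipin at 0.76 (adjusted p = 0.0317), against 1.85% of all genes. Without digoxin 1, 2 of 47 genes reached an unadjusted p under 0.05, against 2.78% of all genes, and without digoxin 2, 10 of 47, against 4.78%.

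Highly proliferative M2 macrophages held the set at its highest level, with a sum of 3480 and 3470 CPM in vehicle mice and 3815 and 3653 in digoxin mice. Of 47 genes, 41 lay above 0 with a median of 0.12 (all genes 0.02). Limma called 0 of 47 (0% of all genes), 0 reached an unadjusted p under 0.05 (3.94% of all genes), and both digoxin mice were above both vehicle mice for 17 of 47, against 17.4% of all genes. Pold1, the catalytic subunit of polymerase delta, was at 26.7, 18.2, 32.8 and 26.5 CPM, a difference of 0.40 (SE 0.20, unadjusted p = 0.0843, limma adjusted p = 1.00). Slbp was at 134.0, 128.1, 157.0 and 144.2 CPM and Rrm2 at 154.4, 164.7, 192.8 and 172.9, differences of 0.20 (SE 0.10) and 0.19 (SE 0.11). The groups did not overlap for Slbp and Rrm2 and overlapped for Pold1. Without vehicle 2 the Pold1 difference was 0.14, and 34 genes lay above 0, with a median of 0.10.

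**Figure D4:**
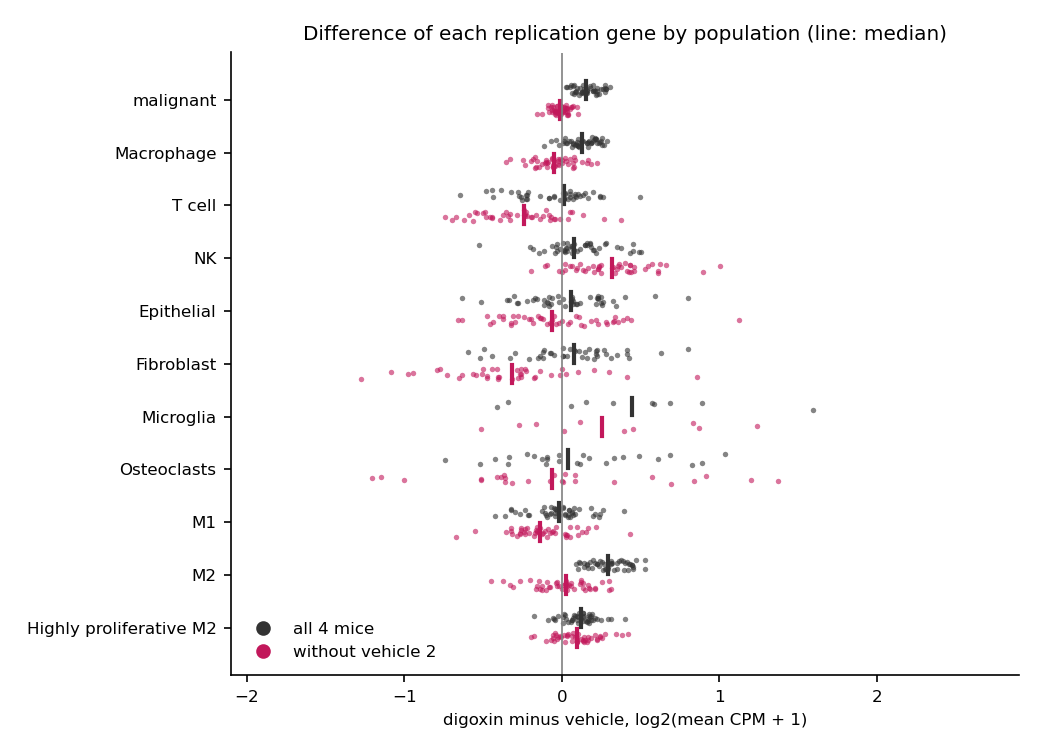
Digoxin minus vehicle in log2(mean CPM + 1) for each tested replication gene (points) and its median (line) by population, with all 4 mice (dark) and without vehicle 2 (red). With all mice the malignant and M2 points all lie right of 0; without vehicle 2 their medians are -0.01 and 0.03.

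In T cells, 45 of the 47 genes had enough UMIs to be tested, and 24 lay above 0 and 21 below, with a median of 0.01. Limma called 0 of 45 (0% of all genes), 1 reached an unadjusted p under 0.05 (4.28% of all genes), and both digoxin mice were below both vehicle mice for 6 of 45, against 19% of all genes. The 1 gene was Rrm2, at 97.6 and 85.4 CPM with vehicle and 47.6 and 70.4 with digoxin, a difference of -0.65 (SE 0.23, unadjusted p = 0.0187, limma adjusted p = 0.979). Tk1 was at 31.8, 24.7, 17.9 and 23.2 CPM, also with both digoxin mice below, and Rpa2, a subunit of the single-strand binding protein, at 58.1, 52.7, 33.4 and 52.9 with overlap. The balance of the set depended on how cells were weighted: with UMIs summed over cells before scaling, 4 genes lay above 0 and 41 below, with a median of -0.15. Without vehicle 2, 6 lay above 0 and 39 below.

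In T cells the median difference of the mitosis genes was below that of the set; the gap was not tested, and the ranges overlapped, with -0.65 to 0.50 for the set. All 18 G2 and mitosis genes lay below 0, from -1.77 to -0.28 with a median of -0.82, while 46.5% of all genes lay above 0. At an unadjusted p under 0.05 stood 14 of the 18, against 4.28% of all genes. Limma called 0 of 18, with a smallest adjusted p of 0.596. It called 3 of them without vehicle 2 (Mki67, Cenpf and Ube2c), with 0.929% of all genes called, 2 without vehicle 1 (Mki67 and Ccnb2), with 2.22% of all genes called, and 0 without either digoxin mouse; Cenpf, Ube2c and Ccnb2 are named after their values were seen. Mki67 was at 282.0 and 258.7 CPM with vehicle and 143.4 and 159.8 with digoxin, a difference of -0.83 (SE 0.15, limma adjusted p = 0.596). Top2a, with 261.1, 196.3, 158.7 and 207.4 CPM, overlapped between the groups. Pclaf was at 176.6, 139.4, 100.6 and 136.8 CPM, with both digoxin mice lower. T cells numbered 110 to 183 per mouse. The sum of macrophage markers in them was 897 to 2930 CPM, highest in vehicle 2, and the part of such RNA in these values was not tested.

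In NK cells, 36 of 47 genes lay above 0 and 11 below, with a median of 0.08, while the median of all genes was 0.02 and 53.0% of them lay above 0. The order of mice was another one, with vehicle 1 lowest for 33 of 47 genes, against 21.4% of all genes, and vehicle 2 for 3, against 33.6%. Limma called 0 of 47, against 0.0765% of all genes, 3 reached an unadjusted p under 0.05, against 6.28%, and both digoxin mice were above both vehicle mice for 9, against 19.1%. Lig1 was at 60.0 and 72.8 CPM with vehicle and 95.6 and 90.8 with digoxin, a difference of 0.49 (SE 0.16, unadjusted p = 0.0103, limma adjusted p = 0.695). Rrm2 was at 70.0, 76.5, 95.7 and 95.1 CPM, a difference of 0.38 (SE 0.15), and Rfc3 at 47.1, 49.1, 59.6 and 71.4, a difference of 0.43 (SE 0.18). The groups did not overlap for these 3 genes. Orc1, outside the set, also did not overlap, at 6.53, 6.60, 12.4 and 13.6 CPM. Ccna2 went the other way, with both digoxin mice below, at 41.0, 45.4, 40.4 and 32.5 CPM. Mki67, Top2a, Pclaf, Cdkn1a and Ccnd1 overlapped, with differences of -0.24, 0.01, -0.02, 0.39 and 0.55. Without vehicle 1, 18 genes lay above 0 and 29 below; without vehicle 2, 43 lay above 0 and 4 below. NK cells numbered 69 in vehicle 2 and 141 to 150 in the others.

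The share of NK cells with UMIs from at least 5 genes of the set, after thinning to 5000 UMIs, was 57.6% and 56.7% with vehicle and 70.1% and 68.4% with digoxin. The difference was 12.1 percentage points with a pooled SD of 0.941 (n = 2 per group), but 2 mice against 2 allow no exact permutation p below 0.333. The shares rest on 67 to 147 cells per mouse, and their counting error was not measured, so the SD is no guide to it. With at least 10 genes the difference was 1.86 points, so it depended on the threshold. T cells had 57.8%, 43.0%, 45.9% and 50.9%, and M2 macrophages 40.5%, 27.7%, 41.9% and 46.7%. Without vehicle 2, the digoxin minus vehicle difference was 11.7 points in NK cells, -9.45 against -2.04 with all mice in T cells, and 3.80 against 10.2 in M2 macrophages. Without vehicle 1, it was 5.37 points in T cells, so the direction turned, and 16.5 in M2 macrophages. Over each mouse left out, the NK cell difference ran from 11.2 to 12.9 points.

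With all 4 mice, Rrm2 lay on opposite sides of 0 in tumor cells and T cells. Its difference was 0.31 in malignant cells and -0.65 in T cells, and the test of that difference gave an unadjusted p of 0.00256 and a limma adjusted p of 0.866. Without vehicle 2, the malignant difference was 0.01 and the T cell difference -0.74, with an unadjusted p of 0.0126 and a limma adjusted p of 0.487 for the test between them. Over the 31 pairs of populations compared, those among the 8 cell types and among the 3 macrophage sub-clusters, 45 of 1033 tests of genes of the set reached an unadjusted p under 0.05, against 4.73% of all tests, and 0 were called, against 0.063% of all tests. The pairs share mice and are not independent. Between macrophages and malignant cells, 0 of 47 genes were called (0% of all genes) and 0 reached an unadjusted p under 0.05 (4.06% of all genes).

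The remaining populations held fewer cells. In cells labelled Epithelial, 26 genes lay above 0 and 21 below (19 and 28 without vehicle 2), and limma called 0 of 47, against 0.467% of all genes, with 1 of 47 at an unadjusted p under 0.05, against 5.77%. That gene was Rfc3, at 39.1 and 43.7 CPM with vehicle and 29.3 and 28.1 with digoxin, a difference of -0.51 (SE 0.23, unadjusted p = 0.0446, limma adjusted p = 0.860). Slbp was at 81.8, 70.3, 93.9 and 97.1 CPM and E2f8, a repressive E2F factor, at 4.58, 7.77, 12.4 and 10.1, both with digoxin mice above. Both digoxin mice were above both vehicle mice for 9 of 47 genes, against 17.8% of all genes, and below for 8, against 16.3%. In fibroblasts, 41 genes were tested and 26 lay above 0 with a median of 0.08, with 0 called (0% of all genes) and 0 at an unadjusted p under 0.05 (2.97%). The direction turned with 1 mouse: without vehicle 2, 6 lay above 0 and 35 below with a median of -0.31, and without vehicle 1, 30 lay above 0 with a median of 0.50. Mcm3 was at 34.5, 16.9, 15.1 and 16.4 CPM, so its difference of -0.59 (SE 0.39) came from vehicle 1. Rpa2 was at 25.1, 17.2, 14.1 and 14.3 CPM and Mcm4 at 20.1, 19.2, 16.5 and 12.1. Vehicle 2 held 31 fibroblasts; without vehicle 1, limma called 2 genes of the set, Tyms at 1.26 (adjusted p = 0.0165) and Gmnn at 1.91 (adjusted p = 0.0302), with 4.46% of all genes called, and these 2 are named after their values were seen.

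In osteoclasts, 26 genes of the set were tested, 13 on each side of 0. Limma called 0, against 0.0128% of all genes, and 3 reached an unadjusted p under 0.05, against 6.38%. Mcm3 was at 11.6 and 11.9 CPM with vehicle and 25.6 and 18.2 with digoxin, a difference of 0.82 (SE 0.33, unadjusted p = 0.0303, limma adjusted p = 0.781). Pola1 was at 5.83, 7.59, 14.6 and 14.8 CPM and Nasp at 24.8, 23.4, 41.9 and 33.3, and the groups did not overlap for any of the 3, which were named for their p. Both digoxin mice were above both vehicle mice for 5 of 26 genes, against 21.6% of all genes, and below for 4, against 15.8%. Osteoclasts numbered 28 to 152 per mouse. In cells labelled Microglia, 10 genes of the set were tested and 8 lay above 0, with 0 called (0% of all genes) and 0 at an unadjusted p under 0.05 (4.78%). Pold1 was at 20.1, 18.5, 37.8 and 35.6 CPM, Slbp at 48.7, 40.9, 62.0 and 72.2, and Pcna at 7.75, 4.35, 20.1 and 19.3, each with both digoxin mice above both vehicle mice. This held for 4 of the 10 genes, against 16.7% of all genes, and 1 had both below, against 16.2%. The differences were 0.89 (SE 0.46), 0.57 (SE 0.30) and 1.59 (SE 1.20), from 31 to 58 cells per mouse.

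Across populations the level of the set varied more than between treatments. The populations were separated by the authors with the same expression values, so their order is a description. The summed level over 4 mice was 3605 ± 164 CPM (SD, n = 4) in highly proliferative M2 macrophages, 2539 ± 249 in NK cells and 1920 ± 250 in T cells. Cells labelled Epithelial (1577 ± 60.3), M2 macrophages (1515 ± 273), malignant cells (1464 ± 193) and all macrophages (1405 ± 146) followed, and their ranges over mice overlapped. B cells (1064 ± 482), fibroblasts (798 ± 208) and neutrophils (738 ± 337) had ranges over mice that overlapped. M1 macrophages (661 ± 38.1), osteoclasts (622 ± 63.7), cells labelled Microglia (576 ± 77.1) and dendritic cells (480 ± 67.7) were lowest, with overlap between neighbours. Cells labelled Unknown, 30 cells of vehicle 2 alone, held 2459 CPM.

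**Figure D5:**
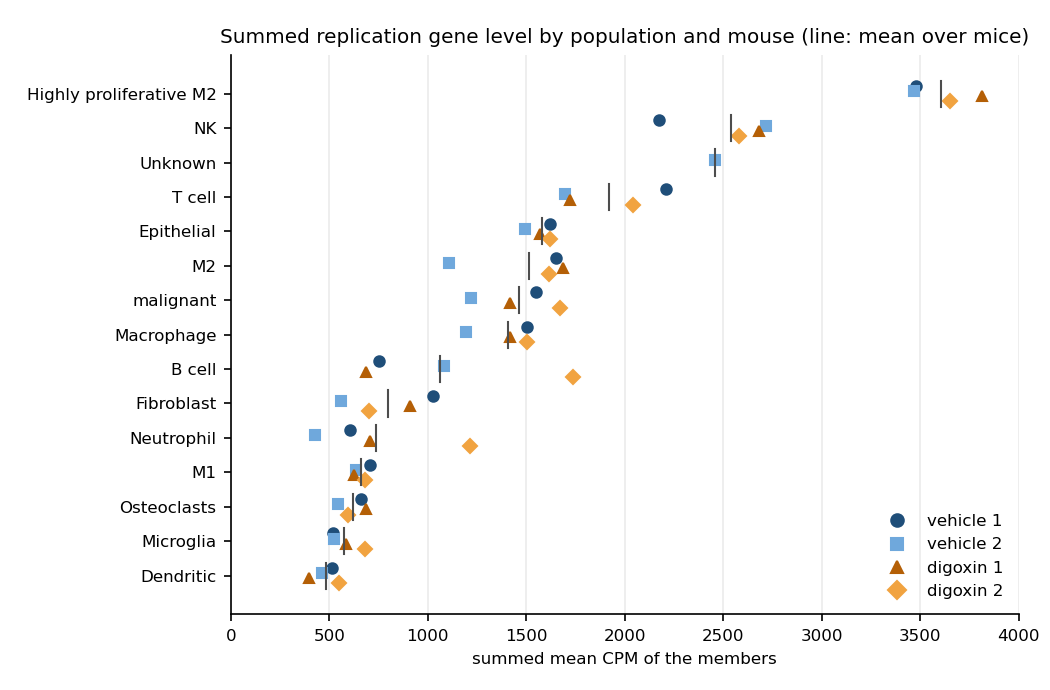
Summed mean CPM of the 47 replication genes by population, 1 point per mouse, with a line at the mean over mice. Highly proliferative M2 macrophages (3470 to 3815) stand above each other population. Vehicle 2 is lowest in malignant cells, macrophages, M2 and highly proliferative M2 macrophages, T cells, cells labelled Epithelial, fibroblasts, osteoclasts and neutrophils. It is not lowest in NK cells, M1 macrophages, cells labelled Microglia, dendritic cells or B cells.

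Gene by gene over the 11 tested populations, 35 of 47 were highest in highly proliferative M2 macrophages and 7 in NK cells. Cells labelled Microglia and osteoclasts held 2 each, and malignant cells 1. Those in cells labelled Microglia, from 31 to 58 cells per mouse, were near ties. Ung was at 18.4 CPM there against 17.9 in NK cells, and Pold1 at 28.0 against 26.1 in highly proliferative M2 macrophages. NK cells came next to highest for 29 genes. In all 4 mice, highly proliferative M2 macrophages were above each mouse's M1 macrophages for 47 of 47 genes. The share of all genes in that order was not computed, and the sub-cluster is named for proliferation, so the count is a description. The ratio of the means ran from 2.19 for Pold3 to 31.2 for Rrm2, with a median of 5.89, so the genes with wide ratios along the cell cycle of malignant cells also had wide ratios between these macrophages (Spearman's rho 0.72 and Pearson's r of log2 ratios 0.74 over 47 genes, a description). Rrm2 was at 171.2 CPM in highly proliferative M2 macrophages and 5.48 in M1, Tk1 at 185.0 and 9.63, and Tyms at 237.8 and 17.5. Slbp, at 140.8 and 59.7, and E2f1, at 52.9 and 17.5, had narrow ratios here too. Against malignant cells, the 4 highly proliferative M2 values were above the 4 malignant ones for 45 of 47 genes, the exceptions being Hells and Cdca7. The share over all genes was not computed here either. Hells was at 73.9 CPM in malignant cells, 63.4 in NK cells and 55.1 in highly proliferative M2 macrophages. Among the tested populations, Hells was the 1 gene of the set with its highest mean in the tumor cells. Its malignant values overlapped those of highly proliferative M2 macrophages over mice, so this place rests on the means.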

How the data were processed

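Tumors of 4 mice were profiled with the 10x 3′ version 3 kit. The submitters' processing notes name Cell Ranger 3.0.2, Seurat 3.0.2 and mm10; the aligner's role, the annotation, the cell filter and the rule for malignant cells are not given in the sources used here. The authors deposited the natural log of 1 plus the UMIs per 10000 UMIs of a cell; the word counts in the table names does not describe these values. The deposited cell tables give each cell's UMI count, cell type, macrophage sub-cluster and mouse, and these annotations were used as deposited. Cells of vehicle 2 have names that start with veh3, and the cell tables give them as vehicle replicate 2. With that count, 100% of the values above 0 came back as whole UMIs within 0.01. Malignant cells held 255961531 to 350781642 UMIs per mouse and non-malignant cells 52417178 to 59626065.

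UMIs were scaled to CPM per cell and averaged over the cells of a mouse in each of 11 populations with at least 20 cells in every mouse. Genes kept by edgeR's filterByExpr were tested with limma 3.58.1 (trended empirical Bayes) on log2(mean CPM + 1), with a pseudocount of 1, Benjamini-Hochberg adjustment over all genes and a threshold of 0.05. The planned count test was replaced by limma because the files hold normalized values; edgeR 4.0.16 and DESeq2 1.42.0 on summed recovered UMIs were alternatives. The fits were also run on simulated counts without a shift shared by the genes of a mouse. The outcome is not given here, so the run is no check of these results. Separate mice are stated by the design. The limma p-values rest on the spread between 2 mice per group, with each gene's variance drawn toward a trend over all genes. Where a mouse was left out, its group held 1 mouse and no spread of its own. Scrublet marked 1377 of 31611 cells (4.36%) as doublets, from 5.51% to 8.36% of malignant and 0.332% to 0.824% of non-malignant cells of a mouse; they were kept and left out as an alternative. The columns of no sample numbered 0.

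The 47 genes and the gene lists were chosen with earlier results of these data known. Named in full were any gene past the threshold, in malignant cells the 2 genes of each of 9 roles with the highest mean CPM, the 3 genes with the smallest p in each population, and 8 pathway genes, of which Mki67, Top2a, Ccna2, Orc1, Pclaf, Cdkn1a and Ccnd1 are given and 1 is not reported here.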

Additional observations from a re-analysis of the deposited data

How the results depend on the processing

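Across the 11 populations, 50 values of named genes were recomputed under 9 settings other than leaving out a mouse. Of these 449 values, 0 changed direction and 0 passed the threshold. The replicate block and the fit with no filter leave each difference as it is, so they could not turn a direction. Outside malignant cells the genes were named for the smallest p, so the count does not stand for the whole set. No gene of the set was called by limma, edgeR or DESeq2 under any setting, with these exceptions. They were fibroblasts without vehicle 1 and the test between M1 and M2 macrophages without vehicle 1. In both, the lone vehicle mouse is assumed to vary like the others. The tests between populations were run with limma alone. Mice were left out in them only for M1 against M2 and for malignant cells against macrophages and against T cells. The count over all genes in the test of digoxin against vehicle was less stable. DESeq2 called 45 genes in malignant cells, 20 in macrophages, 15 in cells labelled Epithelial, 1 in fibroblasts, 1 in cells labelled Microglia, 2 in osteoclasts, 42 in M1, 9 in M2 and 16 in highly proliferative M2 macrophages. EdgeR called 17 in NK cells, 0 in cells labelled Epithelial and 0 in osteoclasts, and summed UMIs gave 0 in both of the last. Cells labelled Epithelial had 6 calls with no filter and 26 without cells over 20% mitochondrial UMIs. Without doublets, NK cells had 1 and cells labelled Microglia 4.

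With the replicate number as a block, the calls were 57 in T cells, 23 in NK cells, 85 in cells labelled Epithelial and 3 in osteoclasts, and 0 genes of the set were called; in T cells 3 mitosis genes were, Mki67, Ccnb2 and Cenpf. The numbers share nothing else in the labels, and same-numbered mice correlated at -0.36 to 0.06, so the pairing is only a name. With crossed numbers, cells labelled Microglia had 40 calls and malignant cells 0.

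Genes of the set above 0 in T cells were 4 with summed UMIs, 5 with edgeR and 6 with DESeq2. With no filter, 30 lay above 0 in cells labelled Microglia and 26 in osteoclasts, where more genes were tested, and without doublets 5 in cells labelled Microglia. The digoxin minus vehicle share of cells in M1 macrophages was -0.173 points with at least 10 genes; in NK cells it was 9.21 points at 3000 UMIs, 5.03 with at least 3 genes and 1.86 with at least 10. With 7-letter cores, 22 genes of the set and 7.79% of all genes matched; among tested genes, 3.02% held the longer motif. The cause of these shifts was not tested.

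Leaving out each mouse in turn, genes called ranged from 0 to 15 in malignant cells, 0 to 138 in macrophages, 0 to 198 in T cells, 12 to 107 in NK cells, 12 to 344 in cells labelled Epithelial, 0 to 414 in fibroblasts, 13 to 87 in cells labelled Microglia, 0 to 5 in osteoclasts, 0 to 210 in M1, 0 to 51 in M2 and 0 to 267 in highly proliferative M2 macrophages. Genes of the set above 0 ranged from 20 to 47 in malignant cells, 16 to 47 in macrophages, 6 to 31 in T cells, 18 to 43 in NK cells, 6 to 33 in fibroblasts, 12 to 31 in M1 and 27 to 47 in M2 macrophages. In malignant cells, 10 named differences changed sign without vehicle 2, those of Mcm7, Tipin, Rfc2, Slbp and Ccne1 also without digoxin 2. Their ranges were -0.052 to 0.21 for Mcm7, -0.089 to 0.16 for Tipin, -0.065 to 0.37 for Gmnn, -0.058 to 0.41 for Prim1, -0.042 to 0.23 for Rfc2, -0.036 to 0.25 for Rfc3, -0.037 to 0.34 for Fen1, -0.040 to 0.47 for Tyms, -0.038 to 0.10 for Slbp and -0.028 to 0.43 for Ccne1. Leaving out each mouse for the shares of cells and the tests between populations was chosen after seeing the data. Tested populations held as few as 28 cells in a mouse, and the size of difference detectable at the spread of these mice was not measured.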
